A study of Mus musculus with 12 samples.

Results

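Smooth muscle contractile and myofibroblast genes were followed in kidney glomeruli of 2 inbred mouse strains, in anti-GBM glomerulonephritis (anti-GBM GN) and in controls. The 10 genes were transgelin (Tagln), transgelin 2 (Tagln2), smooth muscle alpha actin (Acta2), desmin (Des), smooth muscle myosin heavy chain (Myh11), calponin 1 (Cnn1), caldesmon (Cald1), myosin regulatory light chain 9 (Myl9), smoothelin (Smtn) and vimentin (Vim), out of 18201 genes that the arrays measured. The family was chosen by the large difference of Tagln between anti-GBM GN and control, so that difference is described without a test. The other 9 were named by function, at a time when changes of Acta2, Des and Vim in these arrays were already known. Probe sets annotated to one of these symbols alone were used, 22 in all, and each gene was read from the probe set with the highest mean log2 signal over all arrays.

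Glomeruli, the filtering units of the kidney, came from 4 groups of 3 female mice aged 8 to 10 weeks: 129S2SvPAs anti-GBM GN, 129S2SvPAs control, C57BL6J anti-GBM GN and C57BL6J control. In this model, antiserum against the glomerular basement membrane binds along the capillary wall and provokes inflammation. Serum injections fell on days 0, 1 and 2 and kidneys were collected on day 4. The labels do not say what the control mice received. Each mouse gave 1 Affymetrix array, whose log2 signals covered 1.12 to 15.02 with array medians of 2.99 to 3.06, and the number of arrays limits the precision. Glomeruli were collected between sieves of 100 and 45 µm, so an array can hold transcripts of podocytes, endothelium, mesangium and tubule together. The values are of whole glomerular preparations, in which fewer cells of a type and less RNA per cell cannot be told apart.

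Smooth muscle cells contract when myosin, switched on by phosphorylation of its regulatory light chain, pulls on alpha actin filaments, while caldesmon, calponin and transgelin bind those filaments and desmin and vimentin form the intermediate filament scaffold. Many of these genes carry CArG boxes, the DNA element bound by serum response factor (SRF) with its actin-sensing partners, the myocardin-related factors. In the glomerulus the mesangial cell is the contractile cell. Alpha actin in mesangial cells and desmin in rodent podocytes are widely used signs of injury in this tissue, and cells that gain alpha actin together with matrix genes are called myofibroblasts.

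RefSeq promoter windows (GRCm38.p6, 250 bases before to 50 after each annotated start) were at hand for 8 of the 10 genes, with none for Tagln and Myh11. A CArG box was searched on both strands as CC, 6 bases of A or T, and GG, and a CArG-like box as the same with 1 of the 6 core bases replaced by C or G. Myl9 alone held a CArG box, which 1.806% of all 27018 genes with a window held. Myl9 and Acta2 each held CArG-like boxes, against 9.686% of all genes. The 250 bases before the start are shown for these genes because they carry the boxes, which stand in capitals. The Acta2 stretch is on the minus strand at chr19:34255374-34255623 and the Myl9 stretch on the plus strand at chr2:156775214-156775463, both printed 5′ to 3′ along the gene.
Acta2: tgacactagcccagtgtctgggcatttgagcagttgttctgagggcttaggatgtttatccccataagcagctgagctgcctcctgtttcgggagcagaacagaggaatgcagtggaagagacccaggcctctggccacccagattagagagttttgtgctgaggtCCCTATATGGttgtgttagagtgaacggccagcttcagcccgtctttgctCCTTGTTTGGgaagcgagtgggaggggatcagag
Myl9: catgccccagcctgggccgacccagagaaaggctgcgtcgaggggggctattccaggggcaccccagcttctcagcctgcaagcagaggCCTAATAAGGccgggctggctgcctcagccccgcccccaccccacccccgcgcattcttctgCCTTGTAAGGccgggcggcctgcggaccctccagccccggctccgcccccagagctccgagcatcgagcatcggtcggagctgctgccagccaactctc
The boxes of Acta2 begin 84 and 34 bases before the start, both CArG-like. Those of Myl9 begin 161 bases before the start, a CArG box, and 99 bases before it, a CArG-like one. A match is a description of these letters and not a measured binding site, and windows without one say nothing about more distant elements.

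The question was whether the rise of Tagln under nephritis was shared by the rest of the contractile family. Tagln, an actin-binding protein of the calponin family used as an early smooth muscle marker, was far higher in anti-GBM GN of both strains. The log2 signals were 10.32, 10.89 and 10.65 in 129S2SvPAs anti-GBM GN and 4.82, 4.93 and 5.01 in 129S2SvPAs control. They were 12.14, 11.28 and 11.34 in C57BL6J anti-GBM GN and 6.61, 6.52 and 5.75 in C57BL6J control. The 4 groups did not overlap, with C57BL6J above 129S2SvPAs within each treatment. Anti-GBM GN was higher than control by 5.70 (SE 0.27) on the log2 scale in 129S2SvPAs, or 52.0-fold, and by 5.29 (SE 0.27) in C57BL6J, or 39.2-fold.

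**Figure D1:**
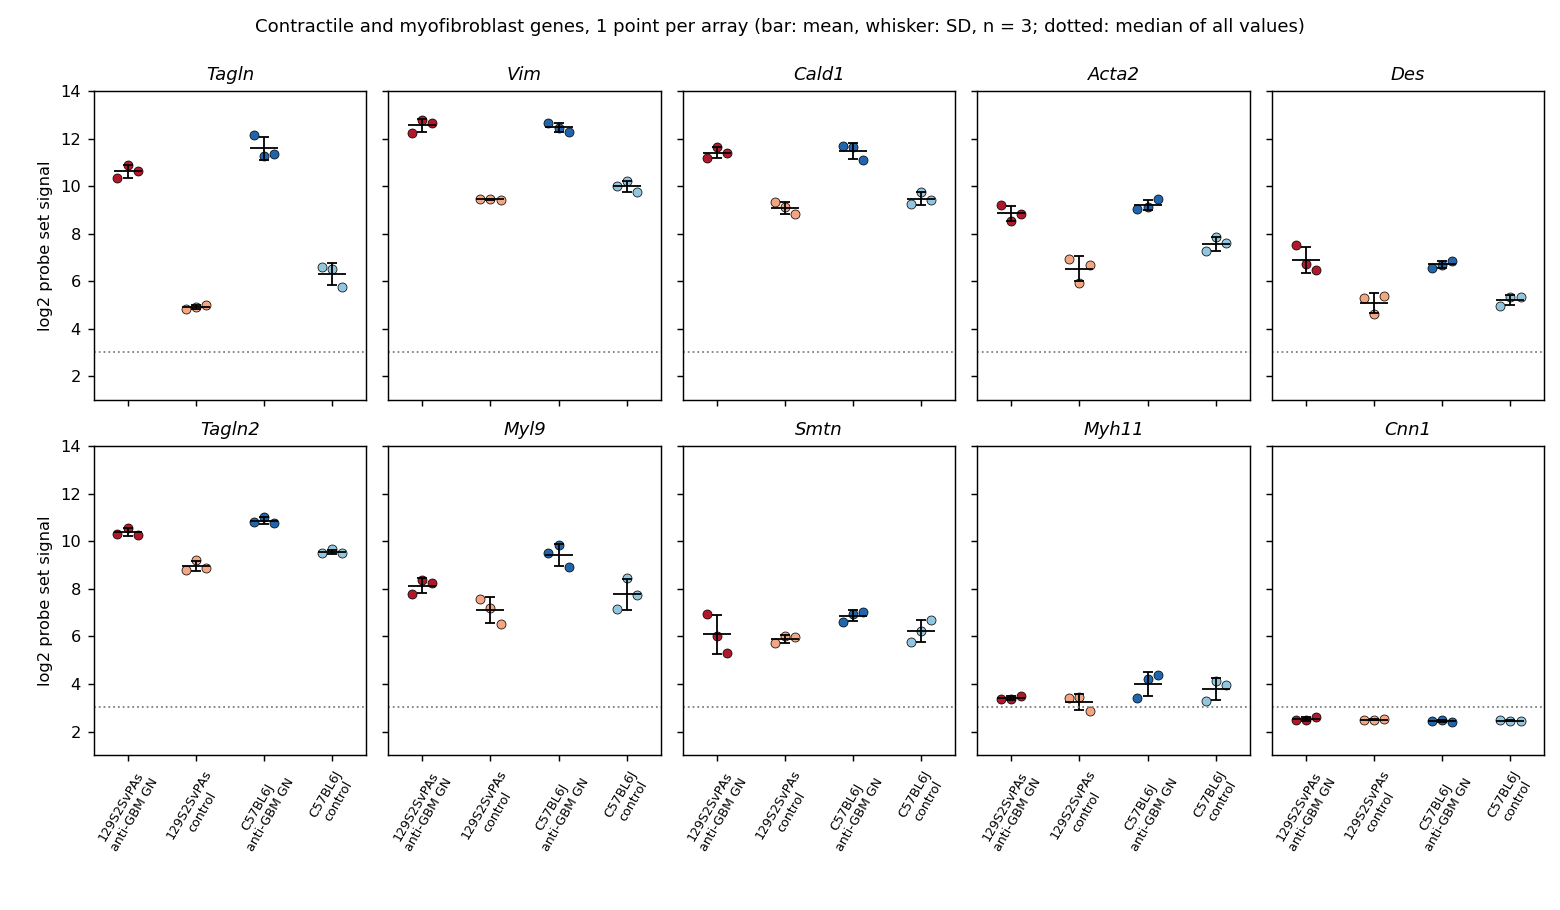
Log2 probe set signal of the 10 genes on each of the 12 arrays, with the group mean and SD (n = 3) and a dotted line at the median of all deposited values, 3.03. Tagln, Vim, Cald1, Acta2, Des, Tagln2 and Myl9 lie higher in anti-GBM GN than in control without overlap in both strains, Smtn and Myh11 overlap, and Cnn1 stays between 2.42 and 2.63.

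Most of the other family members rose as well, by less than Tagln differed, while Smtn and Myh11, markers of differentiated smooth muscle, were not called and Cnn1 lay at the floor. A gene was called when the Benjamini-Hochberg adjusted p of limma's moderated test, over all 11921 genes tested, was under 0.05. Of the 8 other members tested, 5 were called higher in 129S2SvPAs, where 10.6% of all genes were, and 6 in C57BL6J, where 4.78% were. None was called lower in either strain, where 9.76% of all genes in 129S2SvPAs and 2.31% in C57BL6J were. At an unadjusted p under 0.05 the members numbered 6 in each strain, all higher, where 33.2% of all genes passed in 129S2SvPAs and 21.2% in C57BL6J. Of the 8, 6 were higher without overlap of the arrays in each strain, where 16.4% of all genes were in 129S2SvPAs and 13.2% in C57BL6J. The median difference of the 8 was 1.62 in 129S2SvPAs and 1.57 in C57BL6J, against 0.00 and -0.03 for all genes. Acta2, Des and Vim, whose changes in these arrays were already known, are part of all these counts and medians and were called in both strains. Of the remaining members, Tagln2 and Cald1 were called in both strains, Myl9 in C57BL6J alone, and Smtn and Myh11 in neither. Of the 9 members tested, 8 lay above the median of all deposited values on all 12 arrays, and Myh11 did so on 11.

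Vim, the intermediate filament of mesenchymal cells that podocytes and endothelium also make, had the largest difference after Tagln. Its log2 signals were 12.25, 12.77 and 12.64 in 129S2SvPAs anti-GBM GN, against 9.45, 9.46 and 9.40 in 129S2SvPAs control. In C57BL6J they were 12.67, 12.45 and 12.29 in anti-GBM GN, against 9.99, 10.23 and 9.73 in control. The nephritic arrays of the strains overlapped, while the control arrays of 129S2SvPAs were all below those of C57BL6J. The rise was 3.12 (SE 0.17, limma adjusted p = 3.98e-06) in 129S2SvPAs and 2.49 (SE 0.17, limma adjusted p = 2.05e-05) in C57BL6J. Both other Vim probe sets rose too, by 3.95 and 3.66 in 129S2SvPAs and by 2.97 and 2.88 in C57BL6J. Desmin, the muscle intermediate filament, had signals of 7.50, 6.74 and 6.45 in 129S2SvPAs anti-GBM GN, against 5.30, 4.61 and 5.36 in 129S2SvPAs control. It had 6.57, 6.70 and 6.86 in C57BL6J anti-GBM GN and 4.95, 5.32 and 5.35 in C57BL6J control. All nephritic arrays were thus above all controls. Des rose by 1.81 (SE 0.27, limma adjusted p = 0.00102) in 129S2SvPAs and by 1.50 (SE 0.27, limma adjusted p = 0.00725) in C57BL6J, and its other probe set was above the median of all values on no array.

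Among the thin filament genes, caldesmon and alpha actin rose in both strains. Cald1, whose protein binds actin and tropomyosin in smooth muscle and, as another isoform, in other cells, gave 11.17, 11.63 and 11.38 in 129S2SvPAs anti-GBM GN, against 9.32, 9.11 and 8.83 in 129S2SvPAs control. In C57BL6J it gave 11.69, 11.63 and 11.09 in anti-GBM GN and 9.24, 9.77 and 9.42 in control. The groups of the same treatment overlapped between strains, and the treatments did not overlap. The rise was 2.31 (SE 0.21, limma adjusted p = 5.17e-05) in 129S2SvPAs and 1.99 (SE 0.21, limma adjusted p = 2.64e-04) in C57BL6J. A pair of other Cald1 probe sets rose by 2.72 and 2.83 in 129S2SvPAs and by 2.56 and 1.96 in C57BL6J. Another, close to the floor of the signals, differed by 0.76 (limma adjusted p = 0.170) and 1.25 (limma adjusted p = 0.0631) in those strains and was not called.

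Acta2, the actin of smooth muscle and myofibroblasts, gave 9.20, 8.55 and 8.81 in 129S2SvPAs anti-GBM GN, against 6.95, 5.94 and 6.68 in 129S2SvPAs control. In C57BL6J it gave 9.05, 9.11 and 9.46 in anti-GBM GN and 7.25, 7.86 and 7.60 in control. The lowest group was 129S2SvPAs control and the nephritic groups overlapped. The rise was 2.33 (SE 0.27, limma adjusted p = 1.99e-04) in 129S2SvPAs, or 5.03-fold, and 1.64 (SE 0.27, limma adjusted p = 0.00410) in C57BL6J, or 3.11-fold. The probe set behind these values is of a type that can match more than one actin transcript, and both other Acta2 probe sets stayed below the median of all values on every array. Tagln2, the transgelin of non-muscle cells including platelets and lymphocytes, gave 10.31, 10.58 and 10.28 in 129S2SvPAs anti-GBM GN and 8.80, 9.20 and 8.86 in 129S2SvPAs control. It gave 10.80, 11.04 and 10.77 in C57BL6J anti-GBM GN, against 9.52, 9.67 and 9.50 in C57BL6J control. None of its 4 groups overlapped another on this probe set. Tagln2 rose by 1.44 (SE 0.14, limma adjusted p = 7.65e-05) in 129S2SvPAs and by 1.31 (SE 0.14, limma adjusted p = 3.08e-04) in C57BL6J. A second probe set rose by 1.41 and 1.12, and on it the nephritic groups of the strains overlapped.

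Of the remaining members tested, Myl9 was called in C57BL6J alone, and Myh11 and Smtn in neither strain. Myl9, the light chain whose phosphorylation starts contraction, gave 7.77, 8.37 and 8.27 in 129S2SvPAs anti-GBM GN, against 7.59, 7.20 and 6.51 in 129S2SvPAs control. In C57BL6J it gave 9.53, 9.86 and 8.94 in anti-GBM GN and 7.15, 8.44 and 7.73 in control. No nephritic array fell below a control of its own strain, and the gap in 129S2SvPAs was small. The difference was called in C57BL6J, at 1.67 (95% interval 0.86 to 2.48, limma adjusted p = 0.0212), and not in 129S2SvPAs, at 1.04 (0.22 to 1.85, limma adjusted p = 0.0723). In 129S2SvPAs it was called with a stricter filter on low values (limma adjusted p = 0.0476) and with array weights (limma adjusted p = 0.0252), which brought the members called there to 6. The call in C57BL6J was lost, with adjusted p of 0.0695 to 0.102 in limma, when C57BL6J anti-GBM GN replicate 1 or 2 or C57BL6J control replicate 1 or 3 was left out.

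Myh11, the myosin heavy chain found in differentiated smooth muscle, stayed near the floor with 3.35, 3.35 and 3.50 in 129S2SvPAs anti-GBM GN, against 3.43, 3.46 and 2.86 in 129S2SvPAs control. It had 3.41, 4.23 and 4.37 in C57BL6J anti-GBM GN and 3.28, 4.12 and 3.96 in C57BL6J control. Treatments overlapped in both strains, with differences of 0.15 (95% interval -0.47 to 0.77, limma adjusted p = 0.787) in 129S2SvPAs and 0.22 (-0.41 to 0.84, limma adjusted p = 0.747) in C57BL6J. A change in transcript at this level would be understated by the floor. Smtn, which marks the contractile state of smooth muscle, had 6.96, 6.02 and 5.32 in 129S2SvPAs anti-GBM GN and 5.72, 6.04 and 5.97 in 129S2SvPAs control. It had 6.62, 6.94 and 7.05 in C57BL6J anti-GBM GN, against 5.75, 6.23 and 6.68 in C57BL6J control. The highest and the lowest of its 129S2SvPAs arrays were both nephritic. Its differences were 0.19 (95% interval -0.60 to 0.98, limma adjusted p = 0.787) in 129S2SvPAs and 0.65 (-0.14 to 1.44, limma adjusted p = 0.340) in C57BL6J. Cnn1, the calponin of contractile smooth muscle, was read at 2.42 to 2.63 on all arrays, below the filter on low values, and was not tested.

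**Figure D2:**
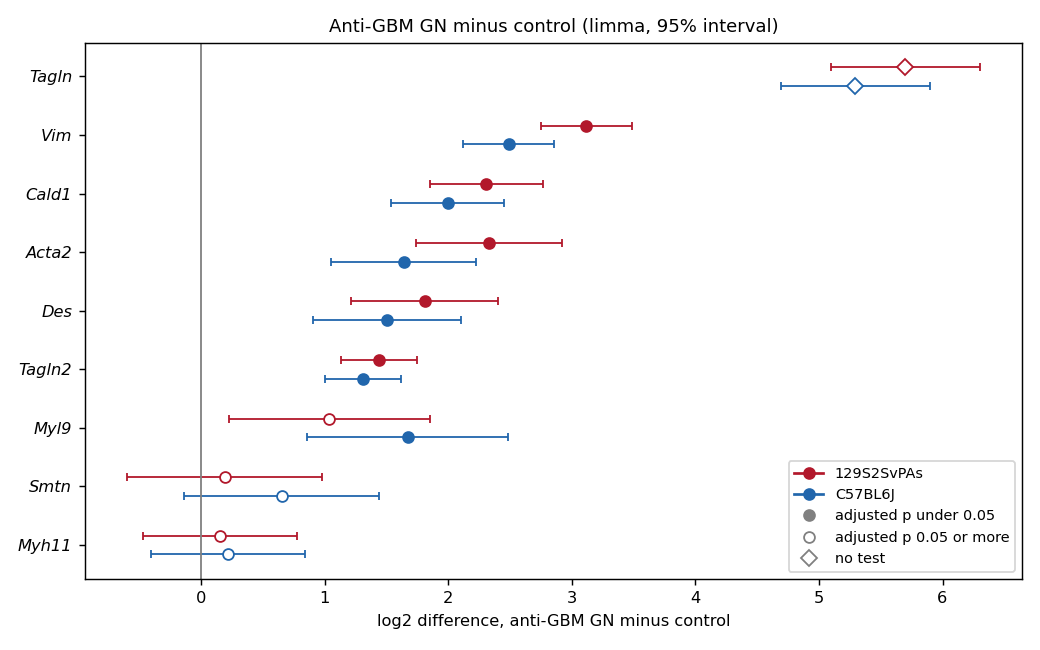
Log2 difference between anti-GBM GN and control with its 95% interval for the 9 members above the floor, 129S2SvPAs (red) above C57BL6J (blue). Filled circles passed limma's adjusted p of 0.05, and Tagln, at 5.70 and 5.29, is shown without a test, apart from all other members, of which Vim comes next at 3.12 and 2.49.

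The strains did not differ detectably in how the members responded. In the test of the difference of responses (129S2SvPAs minus C57BL6J), limma called 0 of the 9 members, where it called 0.562% of all genes, and 1 member had an unadjusted p under 0.05, where 10.9% of all genes did. That member was Vim, at 0.63 (95% interval 0.11 to 1.15, adjusted p = 0.357 in limma). Tagln had 0.41 (-0.44 to 1.26), Acta2 0.69 (-0.14 to 1.53) and Myl9 -0.63 (-1.78 to 0.52), so differences of size 1 on the log2 scale were inside the intervals of all 3. Of the 9 estimates 6 were positive and 3 negative, those of Myl9, Smtn and Myh11. Their median was 0.30, against 0.03 for all genes.

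Control glomeruli of the strains did differ in the family. All 9 members had lower means in 129S2SvPAs control than in C57BL6J control, with a median difference of -0.55 against -0.00 over all genes. Limma called 3 of the 9 lower, where 5.11% of all genes were called lower. These were Tagln at -1.37 (SE 0.27, adjusted p = 0.0111), Acta2 at -1.05 (SE 0.27, adjusted p = 0.0362) and Tagln2 at -0.61 (SE 0.14, adjusted p = 0.0223). Vim, at -0.55, had an adjusted p of 0.0732 in limma and was called on one of its other probe sets, at -0.78 (limma adjusted p = 0.0445). Without C57BL6J control replicate 2 none of the 3 calls was kept, with Tagln at -1.26 (limma adjusted p = 0.0551). Without C57BL6J control replicate 3 or 129S2SvPAs control replicate 3 the call of Tagln alone was kept. The call of Acta2 was also lost without C57BL6J anti-GBM GN replicate 1 or 2, 129S2SvPAs anti-GBM GN replicate 3 or 129S2SvPAs control replicate 2, and that of Tagln2 without 129S2SvPAs control replicate 1. Vim was called without 129S2SvPAs anti-GBM GN replicate 1 (limma adjusted p = 0.0363).

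Podocyte and endothelial markers were lower in 129S2SvPAs control as well, where 5.11% of all genes were called lower. Of 9 podocyte markers tested 8 were called lower in 129S2SvPAs control than in C57BL6J control, with a median of -1.62, and the mean log2 signal of the list was 6.60 to 7.31 on 129S2SvPAs control arrays against 8.07 to 8.74 on C57BL6J control arrays. Of 10 endothelial markers 2 were called lower and 9 had an unadjusted p under 0.05 in limma, where 22.3% of all genes did, with a median of -1.17. The list means were 7.46 to 8.84 in 129S2SvPAs control and 8.83 to 9.63 in C57BL6J control. Nephrin (Nphs1), the slit diaphragm protein of podocytes, was 1 of the 8, at -1.62 (limma adjusted p = 0.0493), and Pecam1, an endothelial junction protein, was called at -1.49 (limma adjusted p = 0.0379). Of 11 mesangial and pericyte genes 2 were called lower, with a median of -0.24. Of 5 parietal epithelial markers 1 was called higher and 1 lower, with a median of -0.66. Proximal tubule markers had a median of -0.05 between the controls. The part of these markers in the difference of the contractile genes was not tested.

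Between the strains in anti-GBM GN limma called 0 of the 9 members, where it called 8.38% of all genes in either direction, and 3 members had an unadjusted p under 0.05, where 21.4% of all genes did. These were Myl9 at -1.31 (95% interval -2.12 to -0.49, limma adjusted p = 0.0546), Tagln at -0.97 (-1.57 to -0.37, limma adjusted p = 0.0547) and Tagln2 at -0.48 (-0.79 to -0.17, limma adjusted p = 0.0611), all lower in 129S2SvPAs without overlap, as were 12.6% of all genes. The second Tagln2 probe set gave -0.21 (limma adjusted p = 0.406), and on it the nephritic arrays of the strains overlapped. With array weights limma called 4 members in this comparison. Myl9, Tagln and Tagln2 were each called when certain arrays were left out. Tagln was called without C57BL6J control replicate 3 (limma adjusted p = 0.0319) and Tagln2 without 129S2SvPAs control replicate 2 (limma adjusted p = 0.0430). Myl9 was called without C57BL6J anti-GBM GN replicate 3, C57BL6J control replicate 1 or 2, or 129S2SvPAs control replicate 3 (limma adjusted p = 0.0392 to 0.0445). Without 129S2SvPAs anti-GBM GN replicate 1, Smtn was called lower in 129S2SvPAs at -1.20 (limma adjusted p = 0.0268), against -0.77 (limma adjusted p = 0.245) with it. That array correlated with the others of its group at 0.974 and 0.973, while those correlated with each other at 0.994. Podocyte markers were again lower in 129S2SvPAs, 4 of 9 called, with a median of -0.77, where 4.89% of all genes were called lower. Of 5 platelet markers 2 were called lower in 129S2SvPAs, Ppbp at -3.56 (limma adjusted p = 5.35e-04) and Gp9 at -0.98 (limma adjusted p = 0.00605). Of 4 leukocyte markers 2 were, Ptprc at -1.97 (limma adjusted p = 0.00537) and Csf1r at -1.49 (limma adjusted p = 0.0207). Of 12 proximal tubule markers 2 were, and of 10 endothelial markers 1. Of 5 parietal epithelial markers 1 was, and of 11 mesangial and pericyte genes 0, at a median of -0.25. Gp9 was above the median of all values on the C57BL6J anti-GBM GN arrays alone, so it was tested only through the group where it is high. The part of these lists in the members' strain differences was not tested.

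**Figure D3:**
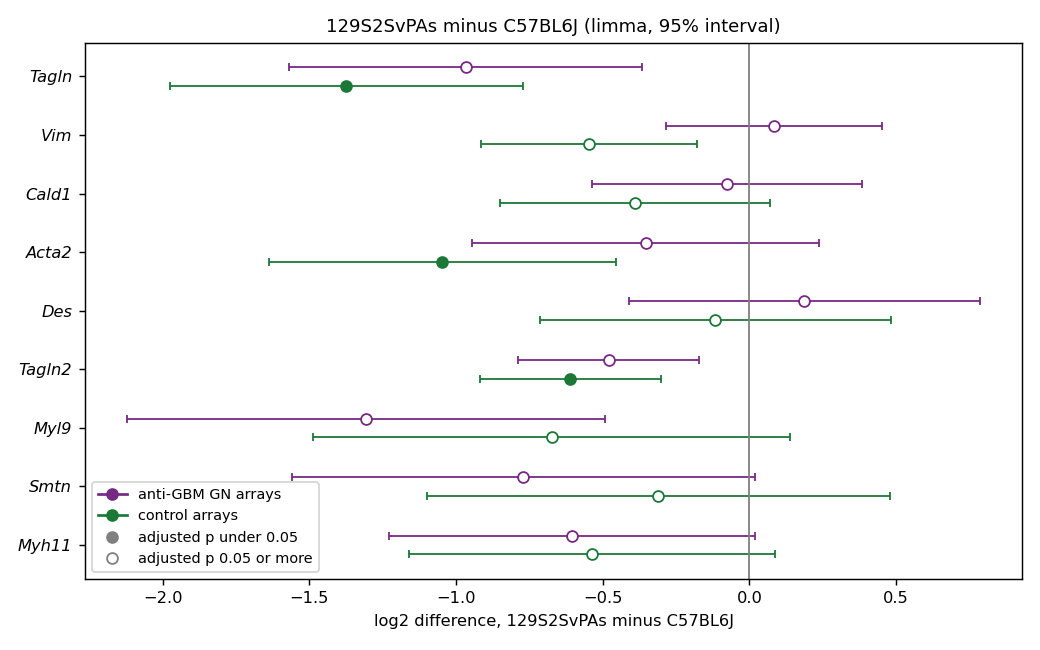
Log2 difference between 129S2SvPAs and C57BL6J with its 95% interval for 9 members, in anti-GBM GN arrays (purple) above control arrays (green). All 9 control estimates are below 0 and 3 are filled (limma adjusted p under 0.05), Tagln, Acta2 and Tagln2, whereas none is filled in anti-GBM GN.

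Part of the other genes of the contractile apparatus rose too. Of 28 listed genes 18 were tested. Of these, 8 rose in 129S2SvPAs, where 10.6% of all genes did, and 11 in C57BL6J, where 4.78% did. None was lower, and the medians were 0.62 and 0.69. Tropomyosin 1 (Tpm1), which lies along the actin filament, rose by 1.60 (limma adjusted p = 1.48e-04) in 129S2SvPAs and 1.61 (limma adjusted p = 3.32e-04) in C57BL6J. Tpm3 rose by 0.98 in 129S2SvPAs and 0.68 in C57BL6J. Calponin 2 (Cnn2), the calponin of non-muscle cells, rose by 1.99 (limma adjusted p = 1.34e-04) in 129S2SvPAs and 1.43 (limma adjusted p = 0.00230) in C57BL6J. Beta actin (Actb) rose by 0.83 in 129S2SvPAs and 0.70 in C57BL6J. Myosin light chain kinase (Mylk), the enzyme that phosphorylates the light chain, was not called, at 0.18 (limma adjusted p = 0.619) in 129S2SvPAs and 0.67 (limma adjusted p = 0.0888) in C57BL6J. Smooth muscle gamma actin (Actg2) was read at 2.47 to 2.56 on all arrays.

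Further forms were looked up after their values had been seen. The non-muscle myosin heavy chain Myh9 rose by 1.41 (limma adjusted p = 1.56e-04) in 129S2SvPAs and by 1.19 (limma adjusted p = 0.00110) in C57BL6J. Myh10, another of these, differed by -0.06 (limma adjusted p = 0.828) in 129S2SvPAs and rose by 0.55 (limma adjusted p = 0.0405) in C57BL6J. Tpm2 and Tpm4 rose by 2.04 and 2.02 in 129S2SvPAs and by 1.57 and 1.86 in C57BL6J. Actg1, the other cytoplasmic actin, rose by 0.92 in 129S2SvPAs and by 0.73 in C57BL6J. Calponin 3 (Cnn3) did not pass, at 0.01 (limma adjusted p = 0.983) in 129S2SvPAs and 0.04 (limma adjusted p = 0.911) in C57BL6J. The smooth muscle potassium channel subunit Kcnmb1 was read at 2.33 to 2.44, and Tagln3, the transgelin of neurons, at 2.69 to 2.77, on all arrays.

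**Figure D4:**
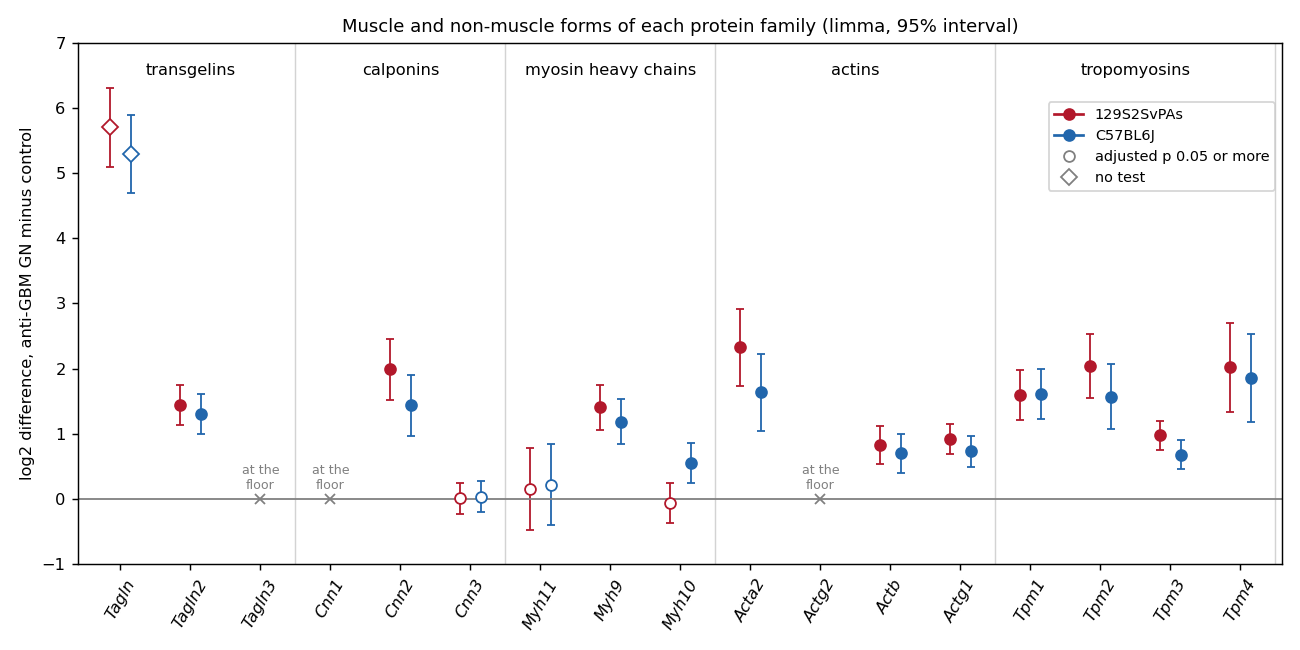
Log2 difference between anti-GBM GN and control, with its 95% interval, for the forms of 5 protein families in 129S2SvPAs (red, left of each pair) and C57BL6J (blue). Tagln and Acta2 lie at 5.70 and 2.33 in 129S2SvPAs, the tropomyosins lie above 0 in both strains, Myh11 spans 0, and Cnn1, Actg2 and Tagln3 are marked as lying at the floor.

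Most known targets of SRF outside the family were called higher. Of 16 known SRF targets 13 rose in 129S2SvPAs and 10 in C57BL6J, with none lower and medians of 1.15 and 0.78. Over all genes 10.6% were called higher and 9.76% lower in 129S2SvPAs, and 4.78% and 2.31% in C57BL6J. Srf and Fhl2 were counted here and among the regulators below. Ccn1, a secreted matricellular protein, rose by 3.93 (limma adjusted p = 4.20e-06) in 129S2SvPAs and 3.48 (limma adjusted p = 2.05e-05) in C57BL6J. The actin crosslinkers alpha-actinin 1 (Actn1) and filamin A (Flna) rose by 2.63 and 2.26 in 129S2SvPAs and by 2.31 and 2.25 in C57BL6J. Of 17 regulators tested, 6 rose and 2 fell in 129S2SvPAs and 2 rose and 1 fell in C57BL6J. A pair of these regulators, Klf5 and Tead4, lay below the median of all values on every control array and passed the filter on low values through nephritic arrays. Without them the counts of 15 regulators were 5 higher and 2 lower in 129S2SvPAs and 2 higher and 1 lower in C57BL6J. Klf5, a factor of proliferating smooth muscle, differed by 1.21 in 129S2SvPAs, where its nephritic arrays read 3.96 to 3.98, and by 0.26 (limma adjusted p = 0.365) in C57BL6J. The LIM domain protein gene Csrp1 rose by 2.35 (limma adjusted p = 1.48e-04) in 129S2SvPAs and 2.13 (limma adjusted p = 6.51e-04) in C57BL6J. The regulators that fell were looked up after their values had been seen. Csrp2 was lower in both strains, at -0.69 (limma adjusted p = 0.00677) in 129S2SvPAs and -0.68 (limma adjusted p = 0.0171) in C57BL6J. Fhl1 was lower in 129S2SvPAs, at -0.67 (limma adjusted p = 0.00445), and not called in C57BL6J, at -0.31. Srf itself rose by 0.87 (limma adjusted p = 0.0105) in 129S2SvPAs and differed by 0.52 (limma adjusted p = 0.153) in C57BL6J. The myocardin-related factors Mrtfa and Mrtfb were not called, at 0.61 and 0.44 in 129S2SvPAs and 0.18 and 0.23 in C57BL6J, and myocardin (Myocd), the muscle-restricted coactivator, was read at 2.46 to 3.02 on all arrays. Klf4, a factor that represses smooth muscle genes in cultured vascular cells, rose by 3.10 (limma adjusted p = 1.99e-04) in 129S2SvPAs and 1.71 (limma adjusted p = 0.0154) in C57BL6J. The test of the difference of responses called no gene of either list.

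The genes listed for a matrix-producing myofibroblast were divided. Of 18 listed genes 11 were tested. Of these, 8 rose in 129S2SvPAs, where 10.6% of all genes did, and 6 in C57BL6J, where 4.78% did. None was lower, and the medians were 1.13 and 1.51. Among those that rose, Tgfb3 lay below the median of all values on every control array and passed the filter through nephritic arrays. Without it 7 and 5 of 10 rose. Tnc and Tgfb1 were above that median on too few control arrays to pass without nephritic ones, reading 2.80 to 3.34 and 2.70 to 3.51 in controls. These counts still hold both as higher in each strain. Col1a1, Lox, Fap, Thy1 and Ltbp2 stayed below that median on all arrays and Postn between 2.68 and 3.20. Of the tested genes, looked up after their values had been seen, Col3a1 was not called at 0.84 in 129S2SvPAs and 1.11 in C57BL6J, nor were Tgfbi at 0.14 and -0.07 and Pdgfra at -0.23 and -0.56. Tenascin C (Tnc), a matrix protein of wounds, rose by 1.85 (limma adjusted p = 5.43e-04) in 129S2SvPAs and 2.06 (limma adjusted p = 6.61e-04) in C57BL6J. S100a4, a calcium-binding protein of motile cells, rose by 3.27 in 129S2SvPAs and 2.17 in C57BL6J. The growth factors Tgfb1 and Tgfb2, which induce alpha actin in fibroblasts, rose by 1.37 and 1.01 in 129S2SvPAs and by 1.51 and 1.80 in C57BL6J. The type I collagen gene Col1a1 was read at 2.59 to 2.80 on all arrays. Its partner chain Col1a2, looked up after its value was seen, rose by 0.98 (limma adjusted p = 0.0359) in 129S2SvPAs and differed by 0.36 (limma adjusted p = 0.543) in C57BL6J. Of 8 other intermediate filament genes 2 rose in each strain. Nestin (Nes), which normal podocytes make, was called in both at 2.64 (limma adjusted p = 1.48e-04) in 129S2SvPAs and 1.57 (limma adjusted p = 0.00774) in C57BL6J. The lamin gene Lmna rose by 2.31 (limma adjusted p = 0.00384) in 129S2SvPAs and differed by 1.30 (limma adjusted p = 0.109) in C57BL6J. Lmnb1 differed by 0.49 (limma adjusted p = 0.219) in 129S2SvPAs and rose by 1.64 (limma adjusted p = 0.00340) in C57BL6J.

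Marker lists of the cells that could carry these transcripts were read beside the members. The shares of all genes to set beside each list were 10.6% higher and 9.76% lower in 129S2SvPAs. They were 4.78% higher and 2.31% lower in C57BL6J. Of 11 mesangial and pericyte genes tested 4 rose in 129S2SvPAs and 1 in C57BL6J, with none lower, at medians of 0.87 and 0.30. The receptor Pdgfrb, which mesangial cells need to develop, rose by 0.98 (limma adjusted p = 0.0452) in 129S2SvPAs and differed by 0.60 (limma adjusted p = 0.302) in C57BL6J. Mcam, an adhesion molecule of pericytes and endothelium, rose by 2.10 (limma adjusted p = 0.00225) in 129S2SvPAs and 1.97 (limma adjusted p = 0.00787) in C57BL6J. Rgs5, a pericyte signalling regulator, and Foxd1, a factor of stromal progenitors, rose by 0.93 and 1.47 in 129S2SvPAs and differed by 0.14 and 0.30, not called, in C57BL6J. The rest of the list, looked up after the values had been seen, was not called in either strain. In 129S2SvPAs Itga8, Gata3, Cd248 and Notch3 differed by 0.87, 0.26, 1.10 and 0.05. Agtr1a, Cspg4 and Art3 differed by -0.15, -0.08 and -0.24 there. The mean log2 signal of the list was 6.54 to 6.88 in 129S2SvPAs anti-GBM GN, against 5.82 to 6.18 in 129S2SvPAs control, and 6.77 to 7.32 in C57BL6J anti-GBM GN, against 6.18 to 6.77 in C57BL6J control. Podocyte markers had medians of -0.07 in 129S2SvPAs, with 3 of 9 higher and 1 lower, and -0.51 in C57BL6J, with 1 higher. The higher ones were Podxl at 1.18, Synpo at 1.06 and Kirrel at 0.86 in 129S2SvPAs and Kirrel at 1.07 in C57BL6J. The lower one was Nphs1, at -1.68 (limma adjusted p = 0.0218), a gene read at 3.42, close to the floor, to 8.06 over the 12 arrays. In C57BL6J 4 of 9 had an unadjusted p under 0.05 in limma, where 21.2% of all genes did. Tcf21, Wt1 and Plce1, looked up after their values had been seen, had means of 7.17, 6.26 and 6.14 in C57BL6J anti-GBM GN. Their means in C57BL6J control were 8.57, 7.22 and 6.97, and none was called. The means of Podxl, Synpo and Kirrel were higher in C57BL6J anti-GBM GN than in control.

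Endothelial markers had 4 of 10 higher and 1 lower in 129S2SvPAs and 1 lower in C57BL6J. The higher ones were the junction genes Pecam1 at 2.67 and Cdh5 at 1.71, Plvap at 2.19 and Eng at 1.19. In C57BL6J Pecam1 differed by 1.41 (limma adjusted p = 0.0519) and Plvap by 0.46 (limma adjusted p = 0.519). The lower one in both was Ehd3, an endocytic protein of glomerular endothelium, at -2.56 in 129S2SvPAs and -1.94 in C57BL6J. Of 5 parietal epithelial markers 1 rose in each strain, the scaffold protein gene Akap12, by 4.04 in 129S2SvPAs and 3.14 in C57BL6J. Cldn1 and Ncam1 were not called, at 0.20 and 0.52 in 129S2SvPAs and 0.69 and 0.58 in C57BL6J. Proximal tubule markers had 5 of 12 lower in 129S2SvPAs and 1 in C57BL6J. Cyp2e1, a cytochrome, was lower in both, at -2.69 in 129S2SvPAs and -1.14 in C57BL6J. The endocytic receptor gene Cubn and the water channel gene Aqp1 were lower in 129S2SvPAs, at -0.75 and -0.57, and not called in C57BL6J, at -0.28 and -0.22. The phosphate transporter gene Slc34a1 was called in neither strain, at -0.42 in 129S2SvPAs and -0.14 in C57BL6J. Their mean log2 signal was 11.57 to 11.71 in 129S2SvPAs anti-GBM GN, against 12.15 to 12.38 in 129S2SvPAs control, without overlap. In C57BL6J it was 11.85 to 12.35 in anti-GBM GN and 12.19 to 12.53 in control. Limma called 0 of the 4 leukocyte markers tested in either strain, with 1 at an unadjusted p under 0.05 in 129S2SvPAs and 2 in C57BL6J, where 33.2% and 21.2% of all genes passed. Ptprc, the leukocyte surface phosphatase, differed by -0.83 in 129S2SvPAs and 0.04 in C57BL6J. The macrophage genes Cd68 and Adgre1 differed by 0.04 and -0.16 in 129S2SvPAs and by 0.98 and 0.27 in C57BL6J. They read 2.65 to 4.69 and 3.02 to 3.51 over all arrays, close to the floor, so their changes can be understated. Csf1r differed by -0.64 in 129S2SvPAs and 0.60 in C57BL6J.

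When the mean signal of the proximal tubule list entered the fit as a covariate, the members called in 129S2SvPAs numbered 3, against 5 without it. Acta2 then differed by 2.23 (SE 0.54, limma adjusted p = 0.0702), against 2.33 (SE 0.27) without the covariate. Des differed by 1.87 (SE 0.55, limma adjusted p = 0.117), against 1.81 (SE 0.27). Tagln was higher by 4.78 (SE 0.43), against 5.70 (SE 0.27). Over all genes the median ratio of the SE to that without the covariate was 1.97 in 129S2SvPAs. There the list separated the treatments without overlap, so covariate and treatment are hard to tell apart. The part of any of the lists in the rise of the contractile genes was not tested.

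The genes whose log2 signals ran most nearly with those of Tagln over the 12 arrays were ranked by the root mean square difference after each gene's mean was subtracted. They were platelet factor 4 (Pf4) at 0.56, cholesterol 25-hydroxylase (Ch25h) at 0.56, Apold1, made by activated endothelium, at 0.81, the junction protein Jam2 at 1.0 and the muscle ankyrin repeat protein Ankrd1 at 1.04. Pf4, a chemokine of platelet granules, had means of 7.73 ± 0.21 in 129S2SvPAs anti-GBM GN, 2.87 ± 0.01 in 129S2SvPAs control, 8.45 ± 0.68 in C57BL6J anti-GBM GN and 4.14 ± 0.87 in C57BL6J control (SD, n = 3 each). Its differences were 4.86 in 129S2SvPAs and 4.31 in C57BL6J. In 129S2SvPAs control Pf4 lay at the floor, and Apold1 and Ch25h lay at or near it, at means of 3.02 and 3.16. Ankrd1 lay at the floor in both control groups at means of 2.69 and 2.94. The differences of these genes can thus be understated, and the ranks rest in part on floor values. Of 5 platelet markers tested 2 rose in 129S2SvPAs and 3 in C57BL6J and none fell, where 10.6% and 4.78% of all genes rose. Gp9, a platelet receptor subunit, was below the median of all values on every control array and passed the filter through nephritic arrays, and without it 2 of 4 rose in each strain. Ppbp, another platelet chemokine, rose by 2.24 (limma adjusted p = 0.00460) in 129S2SvPAs and 4.77 (limma adjusted p = 1.18e-04) in C57BL6J. Gp9 differed by 0.34 in 129S2SvPAs and by 1.36 in C57BL6J. The 4 markers without Gp9 still include Ppbp, whose controls read 3.62, 2.95 and 2.57 in C57BL6J and 2.39, 1.82 and 1.84 in 129S2SvPAs. Ppbp thus also needed nephritic arrays to pass the filter, and Pf4 is the called marker that did not. Gp1bb and Itga2b were not called, at 0.87 and 0.33 in 129S2SvPAs and 0.91 and 0.01 in C57BL6J. The mean log2 signal of the list was 4.39 to 4.88 in 129S2SvPAs anti-GBM GN, against 2.88 to 2.93 in 129S2SvPAs control. In C57BL6J it was 5.24 to 5.99 in anti-GBM GN, against 3.08 to 3.81 in control. The part of platelet transcripts in the members' change was not tested.

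No member of the family was among the 5 genes nearest to Tagln. Vim ranked 31 of the tested genes, with a root mean square difference of 1.44, followed by Cald1 at rank 92, Acta2 at 118, Des at 233, Tagln2 at 254 and Myl9 at 295. Smtn ranked 1697 and Myh11 2751. Because this measure keeps the size of a change, a gene that moves with Tagln but by less ranks lower.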

How the data were processed

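The submitters' processing notes name the tools MAS5 and GCRMA, give no version and do not tell which of them made the deposited values. The deposited log2 values of 45037 probe sets, on a scale read from the values, were used as they stood. The table median of 3.03 lies in a dense floor, which understates differences of dim genes. The platform annotation gave 34957 probe sets 1 gene symbol, 920 several and 9160 none, and only the first kind was used. Each of 18201 genes was read from the brightest of its probe sets on average, and 11921 were tested, those above 3.03 on at least 3 arrays. The probe sets of Acta2 and Cald1 are of a type that can match several transcripts, and that of Vim of a type that can share probes with other sequences. No probe set's level was set against another's.

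Group means were fitted to all 12 arrays in limma 3.58.1 (R 4.3.3), with 5 contrasts and Benjamini-Hochberg adjustment within each, and intervals are at 95%. The fit was tested on simulated data with independent normal noise. These data had no signal floor and no deviations shared between arrays, so they check the code and not the calls made here. The labels number 3 mice per group, and p-values measure the spread between these animals. The labels do not say that a number marks anything shared. Deviations of same-numbered arrays from their group means correlated at 0.21 to 0.33 over the 3 pairs of C57BL6J anti-GBM GN and control, and at 0.24 to 0.28 over those of the control groups, so the numbers were taken to pair these groups, as a hint from the data. They did not pair 129S2SvPAs anti-GBM GN with its control or the anti-GBM GN groups with each other. The main fit used no pairing in any contrast, and the replicate number entered only as a block among the alternatives. No batch or scan date is given in the sources used here. The members and all gene lists were chosen with earlier results of these data known. Of the lists other than the members, the text names a fixed set of genes and the 3 with the lowest p for treatment. Other genes of these lists were named after their values were seen. Of the listed genes, 12 had no probe set of their own symbol and were not analysed here. Alternatives were quantile normalization, a common array median, no filter, a stricter filter, the mean of a gene's probe sets, other probe sets, a trended robust prior, array weights, only the groups compared, the replicate block, the proximal tubule covariate, a minimum log2 difference of 1, and omitting each array in turn. Promoter windows are from RefSeq. Figures were drawn with matplotlib 3.10.9.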

Additional observations from a re-analysis of the deposited data

How the results depend on the processing

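Of 378 alternative values of the 8 other members' differences from control, 362 kept their direction and call or lack of it, 10 lost the call, 2 gained it and 4, of estimates not called, turned in sign. Beside those given above, Myl9 in C57BL6J lost its call with no filter (limma adjusted p = 0.0554) and with the proximal tubule covariate (limma adjusted p = 0.0790). The members called in 129S2SvPAs numbered 3 with the proximal tubule covariate, 6 with the stricter filter and with array weights, which added Myl9, and 5 in each fit that left out an array. Those in C57BL6J stayed at 5 to 6. Averaging all probe sets, with those at the floor included, brought the rise of Acta2 to 0.80 in 129S2SvPAs and 0.55 in C57BL6J, both called.

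The strain comparison was less firm. In controls, 1 member was called with only the groups compared, and 0 to 4 when an array was left out, against 3. In anti-GBM GN, against 0, the members called were 2 with quantile normalization, 2 with the stricter filter, 4 with array weights, 1 with the proximal tubule covariate and 0 to 1 when an array was left out. The call of Acta2 between controls was lost without any 1 of 7 arrays and in 6 other settings, at limma adjusted p of up to 0.151. Over all 18 same-numbered pairs the correlation of deviations was -0.38 to 0.33, over 0.1 in 11, with a median of 0.15 against -0.062 over 36 other pairs. With the replicate number as a block 2 members were called between the strains in anti-GBM GN, Tagln2 (limma adjusted p = 0.0193) and Myl9 (limma adjusted p = 0.0407), a comparison whose numbers do not pair, and the block changed no other member's call.

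Some estimates that no test called turned in sign. With quantile normalization these were Des between controls (0.0064) and the difference of responses of Myh11 (0.005), which was also 0.005 with the mean of probe sets. With arrays shifted to one median it was Cald1 between strains in anti-GBM GN (0.047), and with array weights Smtn in 129S2SvPAs (-0.017). With the proximal tubule covariate the differences of responses of Tagln, Myh11 and Smtn were -0.22, 0.54 and 0.080, and the strain differences in anti-GBM GN of Myh11 and Vim were 0.066 and -0.20. The mean of the probe sets gave -0.038 for that difference of Vim, and its other probe sets -0.19 and -0.0033. The dim probe set of Cald1 gave a difference of responses of -0.50. Leaving out 1 array gave -0.25 to 0.12 for Des between controls and -0.12 to 0.41 in anti-GBM GN, -0.27 to 0.035 for Cald1 and -0.025 to 0.24 for Vim between strains in anti-GBM GN, -0.037 to 0.51 for Myh11 in C57BL6J, -0.045 to 0.26 in 129S2SvPAs and -0.36 to 0.19 for its difference of responses, and -0.24 to 0.58 for Smtn in 129S2SvPAs. The cause was not tested in any of these.

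The background of all genes moved too. With array weights 3830 genes were called in 129S2SvPAs against 2424, 2021 in C57BL6J against 845, 286 against 67 for the difference of responses, 1601 against 1005 between controls and 2256 against 999 in anti-GBM GN. With the proximal tubule covariate these counts were 229, 534 and 6 for the first 3 and 311 in anti-GBM GN. With only the groups compared 1415 were called in 129S2SvPAs and 578 between strains in anti-GBM GN. The stricter filter left 18 and the block 33 for the difference of responses, and leaving out an array gave 15 to 136 there and 407 to 1141 in C57BL6J. A shift of all arrays to one median moved the median of all genes in C57BL6J to -0.11. The floor of the signals limits what can be said of Myh11, and nothing can be said of a change of Cnn1.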
